A study of Mus musculus with 11 samples.

Results

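The genes described here carry nitric oxide signalling to cGMP and its kinase: the NO synthases *Nos1*, *Nos2* and *Nos3*, the dimethylarginine hydrolases *Ddah1* and *Ddah2*, the soluble guanylyl cyclase subunits *Gucy1a1* and *Gucy1b1*, and the cGMP-dependent protein kinases *Prkg1* and *Prkg2*. These 9 genes, not every gene of the pathway, were chosen by name among the 55487 gene identifiers counted, and each symbol matched a single identifier. NO synthases make nitric oxide from arginine, and NO binds the haem of soluble guanylyl cyclase, a heterodimer of an alpha and a beta subunit that then makes cGMP. Cyclic GMP activates the protein kinases encoded by *Prkg1* and *Prkg2*, of which that of *Prkg1* relaxes smooth muscle and phosphorylates regulators of calcium handling. Cyclic GMP also binds the regulatory domain of the phosphodiesterase Pde2A and raises its hydrolysis of cAMP. The enzyme absent from the mutant hearts thus joins the cGMP branch to cAMP.

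Poly(A) RNA was sequenced from isolated whole hearts of mouse embryos at E14.5, with 1 stranded library per heart. The groups were 5 *Pde2A*-/- hearts, homozygous for the constitutive tm1Dgen allele on a mixed B6; 129P2 background, and 6 *Pde2A*+/+ hearts of the same cross between heterozygous parents. Embryos of both sexes were used, no treatment was given, and neither the sex, the litter nor a batch is stated for single hearts. The comparison of the genotypes asks whether transcripts of the NO and cGMP pathway differ in hearts that lack Pde2A.

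The targeted gene was read first. *Pde2a* (ENSMUSG00000110195, chromosome 7, 101421691 to 101512827) had 0 counts in *Pde2A*-/- replicates A and 14, 1 count in replicates D and 15, and 2 counts in replicate B. In *Pde2A*+/+ hearts it had between 0 and 2 counts, with a median of 0. The groups overlapped at this floor, so that a difference was not detectable in these counts, and they give no check of the genotype labels. The annotated gene *Gm45837* shares 3955 exon bases with *Pde2a* on the same strand, 64.3% of the exon length of *Pde2a*, and a read on both genes is counted for neither. Depth was even, with 35865537 to 42835382 reads per heart counted on the sense strand of a gene and medians of 37653522 in *Pde2A*-/- and 37934543 in *Pde2A*+/+ hearts.

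Of the 9 genes, 1 differed between the genotypes: *Nos2*, the inducible NO synthase, was lower in *Pde2A*-/- hearts. Levels are given as CPM, counts normalized by TMM and scaled to library size, as mean ± SD over 5 *Pde2A*-/- or 6 *Pde2A*+/+ hearts, and a gene passed the test at an adjusted p under 0.05 in edgeR's quasi-likelihood fit over the 24177 genes with at least 10 counts. The members' count of 1 in 9 stands beside 14.6% of all genes tested. In the downward direction 1 member passed, beside 5.67% of all genes, and in the upward direction 0 members passed, beside 8.93%. No member passed with a fold change of at least 2, as 2.59% of all genes did. The values of the genotypes overlapped for every member, whereas 8.49% of all genes tested had no overlap. At an unadjusted p under 0.05 in edgeR the count was 1 as well, beside 30.5% of all genes (7368), and with DESeq2 in place of edgeR 1 member passed, beside 21.3% (5145). The 8 genes that did not pass had log2 fold changes from −0.33 to 0.33 and adjusted p from 0.215 to 0.840. Over the 9 genes the log2 fold change had a median of 0.04, beside −0.02 over all genes tested. Without *Pde2A*-/- replicate D, 0 members passed, because the adjusted p of *Nos2* was then 0.0560. The number of all genes that passed, 3532, was 1858, 1702 and 1918 without *Pde2A*-/- replicates 14, D and 15 and 2156 without *Pde2A*+/+ replicate 6.

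**Figure D1:**
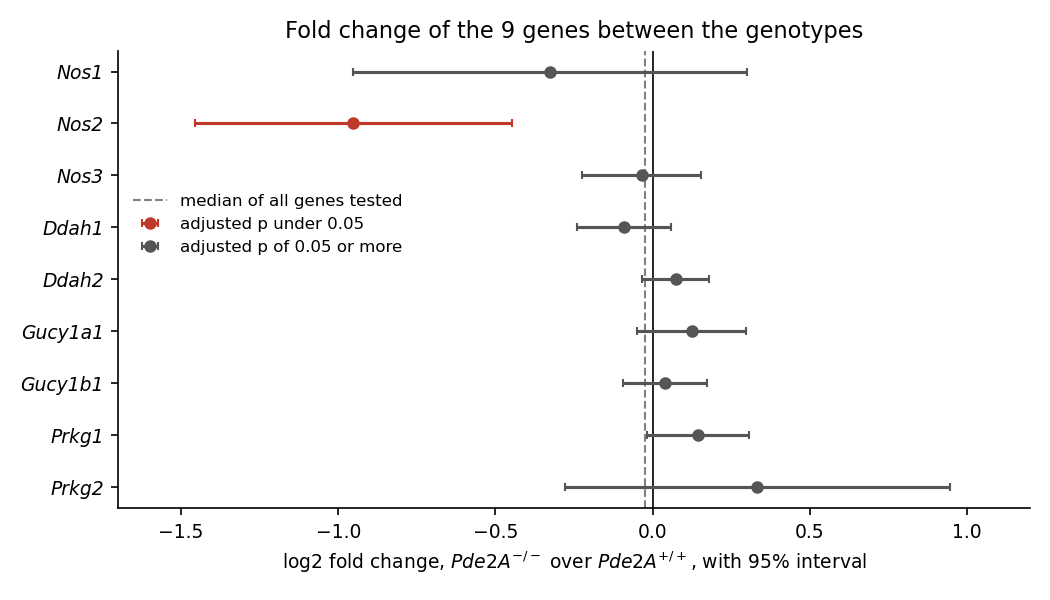
Log2 fold change of each gene, *Pde2A*-/- over *Pde2A*+/+ hearts (points), with its 95% confidence interval (bars) and the median of all genes tested (dashed line). The interval of *Nos2*, from −1.46 to −0.45, is the only one of the 9 that lies wholly below 0, and those of the other genes include 0.

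Transcript levels of the pathway spanned a wide range, from *Ddah2* at the top to the neuronal synthase *Nos1* near the limit of detection. Divided by exon length, *Ddah2* stood at 78.3 ± 3.55 CPM per kb in *Pde2A*-/- and 74.4 ± 4.04 in *Pde2A*+/+ hearts, above every other member. The cyclase subunits came next, *Gucy1b1* at 29.4 ± 0.908 and 28.6 ± 2.70 CPM per kb and *Gucy1a1* at 23.4 ± 2.97 and 21.5 ± 1.57, in the same order of genotypes. *Nos3*, the endothelial synthase, had 18.9 ± 2.85 and 19.4 ± 1.34 CPM per kb. *Nos3* and *Gucy1a1* were the only neighbours in this order whose ranges overlapped, *Gucy1a1* being the higher of the pair in 3 of 5 *Pde2A*-/- and 5 of 6 *Pde2A*+/+ hearts. *Ddah1* had 7.66 ± 0.661 and 8.16 ± 0.630 CPM per kb, and *Prkg1* had 4.61 ± 0.406 and 4.17 ± 0.402. The low end held *Nos2* with 0.465 ± 0.118 and 0.899 ± 0.265 CPM per kb, *Prkg2* with 0.193 ± 0.0463 and 0.154 ± 0.0593, and *Nos1* with 0.0237 ± 0.00406 and 0.0297 ± 0.0117. The order from *Ddah2* to *Nos1* was the same in both genotypes. Within each enzyme family 1 gene supplied most of the transcripts, apart from the cyclase, whose subunits were nearer to each other.

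**Figure D2:**
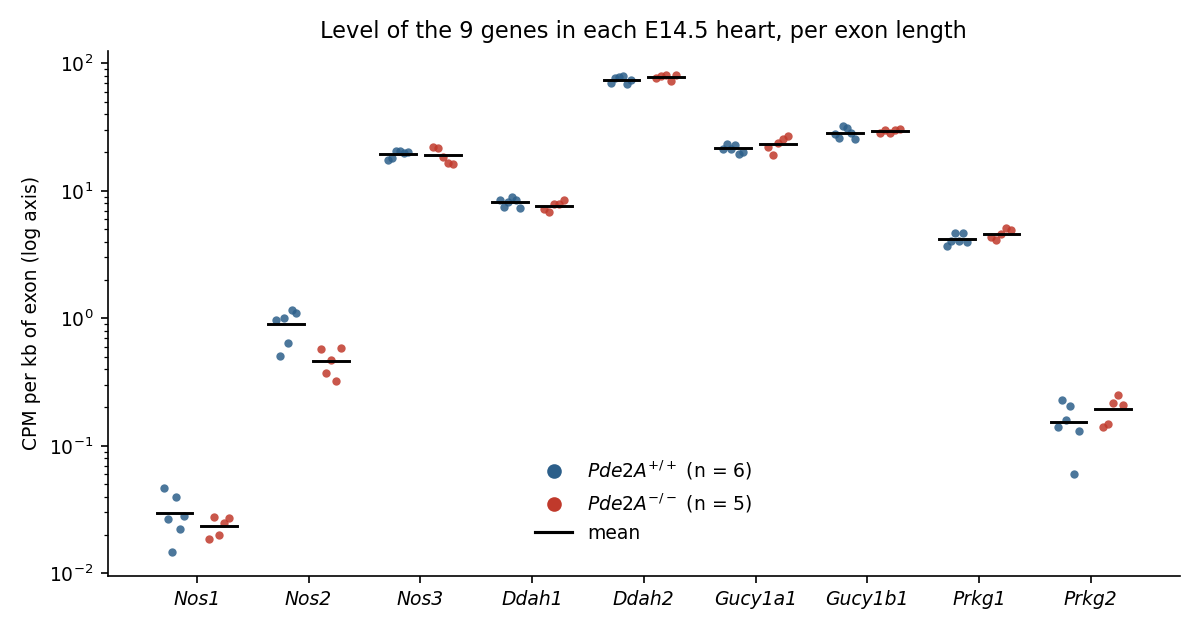
Level of each gene in every heart (points) and the mean of each genotype (bars), in CPM per kb of exon on a log axis, for 6 *Pde2A*+/+ hearts (blue) and 5 *Pde2A*-/- hearts (red). *Ddah2* lies highest and *Nos1* lowest in both genotypes, and *Nos2* shows the widest step between the means, 0.899 against 0.465 CPM per kb.

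*Nos2* (ENSMUSG00000020826, chromosome 11, 78920787 to 78960254, plus strand) encodes the inducible synthase, known for its output in activated macrophages and in tissues exposed to inflammatory cytokines. It had 2.53 CPM in *Pde2A*-/- replicate A, 1.65 in B, 2.07 in 14, 1.42 in D and 2.59 in 15, and in *Pde2A*+/+ hearts 2.23 CPM at the lowest, 4.34 at the median and 5.14 at the highest. Replicates B, 14 and D of *Pde2A*-/- lay below every wild-type heart, and *Pde2A*+/+ replicate 11 lay inside the mutant range while the other wild-type hearts lay above it. These levels rest on 51 to 97 counts per heart in *Pde2A*-/- and 82 to 207 in *Pde2A*+/+ hearts. The means were 2.05 ± 0.521 and 3.97 ± 1.17 CPM, and all 5 *Pde2A*-/- hearts were below the wild-type median. *Nos2* thus fell to 0.517 of its wild-type level (95% interval 0.364 to 0.733), or −0.95 ± 0.23 (SE) as log2 fold change, with adjusted p = 0.0189. Leaving out each heart in turn gave log2 fold changes from −1.07 to −0.84 and adjusted p from 0.00684 to 0.0560, the last without *Pde2A*-/- replicate D, the heart with the lowest level. Whole hearts were sequenced, in which fewer cells of a type and less RNA per cell cannot be told apart.

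Markers of other cell types are given beside *Nos2* because several of them moved between the same hearts. Among all genes tested, 8.93% were higher and 5.67% lower in *Pde2A*-/- hearts. Of 12 macrophage markers 10 were higher in *Pde2A*-/- hearts and 0 lower, with a median log2 fold change of 0.94, opposite in direction to *Nos2*, and none was at 3 counts or fewer in every heart. Their summed level was 284.1 CPM in *Pde2A*-/- replicate A, 320.0 in B, 342.5 in 14, 345.4 in D and 355.1 in 15, all above the 148.9 to 217.8 CPM of *Pde2A*+/+ hearts (median 190.4). *Csf1r*, the receptor of a macrophage growth factor, was the most abundant of them with 66.5 ± 7.26 and 42.5 ± 7.84 CPM, and *Fcgr3* changed most, by 1.43 on the log2 scale (adjusted p = 0.000219). Erythroid markers were higher for 9 of 10 genes, with a median of 3.21 and *Slc4a1*, the anion exchanger of red cells, the most abundant at 380.8 ± 94.8 and 54.2 ± 24.6 CPM. They summed to 524.8, 1059, 849.7, 791.8 and 865.6 CPM in *Pde2A*-/- replicates A, B, 14, D and 15, above the 125.1 to 520.0 CPM of *Pde2A*+/+ hearts (median 270.0). Replicate D, without which *Nos2* did not pass (adjusted p = 0.0560), also held 151.5 CPM of 8 skeletal muscle markers and replicate B 148.2 CPM, against 12.6, 17.7 and 18.7 CPM in A, 14 and 15 and 11.6 to 42.3 CPM in *Pde2A*+/+ hearts. The part of these cells in the level of *Nos2* was not tested.

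**Figure D3:**
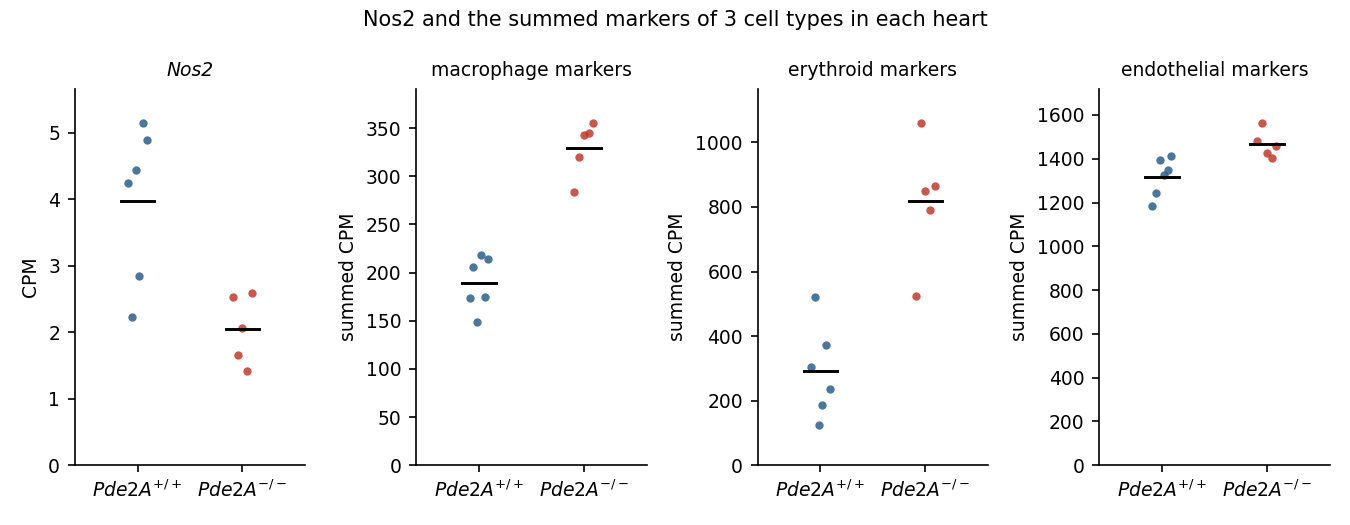
*Nos2* in CPM and the summed CPM of the macrophage, erythroid and endothelial markers in each *Pde2A*+/+ (n = 6) and *Pde2A*-/- heart (n = 5), with points for hearts and bars for means. *Nos2* is lower in *Pde2A*-/- hearts (2.05 against 3.97 CPM) and overlaps between the genotypes, while the macrophage sums (329.4 against 189.2 CPM) and the erythroid sums (818.3 against 290.6 CPM) do not overlap. The endothelial sums (1465 against 1318 CPM) overlap, with 4 mutant hearts above the highest wild-type heart.

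*Nos3* (ENSMUSG00000028978, chromosome 5, 24364810 to 24384474, plus strand), the synthase of endothelium and endocardium, made up most of the NO synthase transcripts. Per exon length it held 97.5% ± 0.714 of them in *Pde2A*-/- and 95.4% ± 1.23 in *Pde2A*+/+ hearts, *Nos2* holding 2.43% ± 0.705 and 4.41% ± 1.24. Its level was 91.8 CPM in *Pde2A*-/- replicate A, 89.4 in B, 75.4 in 14, 68.2 in D and 66.6 in 15, and in *Pde2A*+/+ hearts 71.6 at the lowest, 82.5 at the median and 85.3 at the highest. Mutant hearts fell on both sides of the wild-type range, replicates A and B above all of it and replicates D and 15 below all of it. The SD was 11.8 CPM in *Pde2A*-/- and 5.55 CPM in *Pde2A*+/+ hearts, a difference in spread that was not tested. No difference between the genotypes was detected in the means, 78.3 and 80.2 CPM, with a log2 fold change of −0.03 (95% interval −0.22 to 0.15, adjusted p = 0.840). This sign turned without *Pde2A*-/- replicate D, to 0.01, and without replicate 15, to 0.02.

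*Nos3* was also set against endothelial RNA in the same heart, as its log2 CPM minus the mean log2 CPM of 12 endothelial markers. The value was 0.36 in *Pde2A*-/- replicate A, 0.25 in B, 0.11 in 14, 0.02 in D and −0.12 in 15, and in *Pde2A*+/+ hearts it lay between 0.14 and 0.36. Replicates 14, D and 15 were below every wild-type heart, and replicate A just above the highest. The means, 0.12 ± 0.19 and 0.21 ± 0.07, differed by −0.09 on the log2 scale, and this did not pass (exact permutation test over 462 groupings, two-sided, p = 0.314). With the median of the markers in place of their mean the difference was −0.36 and passed (exact permutation test, two-sided, p = 0.0152), so that the outcome depends on how the markers are summarised. Of these markers 3 were higher, 2 lower and 7 not past the test, with a median log2 fold change of 0.15 and sums of 1465 ± 61.5 CPM in *Pde2A*-/- and 1318 ± 88.9 CPM in *Pde2A*+/+ hearts. The sums overlapped only through *Pde2A*-/- replicate D (1402 CPM), and 4 mutant hearts lay above the highest wild-type sum, 1414 CPM. *Cdh5* was the most abundant at 317.2 ± 34.7 and 317.1 ± 27.2 CPM, and *Cldn5*, a tight junction gene, changed most, by −0.79 (adjusted p = 0.000701). Of 5 endocardial markers, led by *Npr3*, 2 were higher and 0 lower, with a median of 0.30 and overlapping sums of 467.7 ± 67.8 and 397.0 ± 42.5 CPM. The part of the endothelial and endocardial markers in the level of *Nos3* was not tested beyond this ratio.

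*Nos3* shares exon bases with genes of the opposite strand, which bears on how its reads were counted. The antisense gene *Gm15587* covers 1040 of its exon bases (25.2%) and *Atg9b* covers 294 (7.11%). Counted without regard to strand, *Nos3* kept 60.9% of its sense counts, whereas the other members kept between 98.4% and 102.1%. The sense counts were therefore used for every gene here.

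*Nos1* (ENSMUSG00000029361, chromosome 5, 117781032 to 117958840, plus strand) encodes the neuronal synthase, which is also found in cardiac muscle. It had 0.209 CPM in *Pde2A*-/- replicate A, 0.307 in B, 0.224 in 14, 0.278 in D and 0.303 in 15, and in *Pde2A*+/+ hearts 0.164 at the lowest, 0.306 at the median and 0.522 at the highest. The mutant hearts all lay within the wild-type range. With 6 to 20 counts per heart the depth limits this comparison, and a log2 fold change of −0.33 had a 95% interval from −0.95 to 0.30 (adjusted p = 0.496), and was −0.15 without *Pde2A*+/+ replicate 7. Neuronal and neural crest markers were also low, 20.5 ± 3.92 and 22.8 ± 8.83 summed CPM over 12 genes in *Pde2A*-/- and *Pde2A*+/+ hearts, and 0 of them passed in edgeR (median log2 fold change 0.02, from −0.09 to 0.38 over the alternatives).

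Of 13 genes whose proteins bind or place Nos1 and Nos3, 2 were higher, 3 lower and 8 not past the test (14.6% of all genes tested passed). Their median log2 fold change was −0.14, beside −0.02 for all genes tested. *Nostrin*, which moves Nos3 away from the membrane, stood at 7.58 ± 2.23 CPM in mutant and 4.29 ± 0.799 in wild-type hearts, a rise of 0.82 (adjusted p = 0.0126), with every mutant heart above every wild-type heart. *Cav3*, the muscle caveolin that binds NO synthases, had 50.7 ± 8.53 and 74.9 ± 8.61 CPM, a change of −0.56 (adjusted p = 0.00509), again without overlap. *Nos1ap*, an adaptor of Nos1, rose by 0.51 (adjusted p = 0.0371), while *Akt1*, a kinase that activates Nos3, changed by −0.28 (adjusted p = 0.0320) and *Dynll1*, a dynein light chain that binds Nos1, by −0.30 (adjusted p = 0.0465). Each of these last calls was lost without *Pde2A*-/- replicate 14, D or 15, and without *Pde2A*+/+ replicate 6, 8 or H for *Akt1* (adjusted p up to 0.0865), any but 11 for *Nos1ap* (up to 0.0965) and any single one for *Dynll1* (up to 0.121).

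Tetrahydrobiopterin, the cofactor of Nos1, Nos2 and Nos3, is made and recycled by 8 genes tested here. In edgeR 0 of them were higher and 1 was lower (14.6% of all genes tested passed), with a median log2 fold change of −0.14. The gene that passed was *Spr*, sepiapterin reductase, with 47.4 ± 4.11 and 54.6 ± 2.67 CPM and a log2 fold change of −0.20 (adjusted p = 0.0403). Its call was lost without replicate 14, D or 15 of *Pde2A*-/- or replicate 7, 6, 8 or H of *Pde2A*+/+ hearts (adjusted p up to 0.105), and with the style of the replicate names as a covariate (0.0547).

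*Ddah2* (ENSMUSG00000007039, chromosome 17, 35059035 to 35062095, plus strand) and *Ddah1* (ENSMUSG00000028194, chromosome 3, 145758675 to 145894277, plus strand) encode the enzymes that break down asymmetric dimethylarginine, an inhibitor of NO synthases. *Ddah2* had 121.9 CPM in *Pde2A*-/- replicate A, 126.9 in B, 128.7 in 14, 116.2 in D and 129.9 in 15, and in *Pde2A*+/+ hearts 110.0 at the lowest, 119.7 at the median and 126.2 at the highest. Replicates B, 14 and 15 exceeded every wild-type heart and replicate D was the lowest of the mutants, within the wild-type range. *Ddah1* had 28.5 CPM in A, 27.3 in B, 31.3 in 14, 31.6 in D and 33.9 in 15, against 29.0, 33.2 and 35.6 as the lowest, median and highest of *Pde2A*+/+ hearts. Replicates A and B were below all wild-type hearts and the other mutants were among them. Neither gene passed: *Ddah2* had a log2 fold change of 0.07 (95% interval −0.03 to 0.18, adjusted p = 0.345) and *Ddah1* of −0.09 (−0.24 to 0.06, adjusted p = 0.415). *Ddah2* held 91.1% ± 0.748 of the transcripts of the pair per exon length in *Pde2A*-/- and 90.1% ± 0.853 in *Pde2A*+/+ hearts. The log2 ratio of *Ddah1* to *Ddah2* counts was −2.10 in *Pde2A*-/- replicate A, −2.22 in B, −2.04 in 14, −1.88 in D and −1.94 in 15, and lay between −2.02 and −1.71 in *Pde2A*+/+ hearts. Replicates A, B and 14 had lower ratios than any wild-type heart. The means, −2.03 ± 0.13 and −1.87 ± 0.14, differed by −0.16, which did not pass (exact permutation test over 462 groupings, two-sided, p = 0.0844).

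Beside *Ddah1* and *Ddah2*, 11 genes that supply arginine, compete for it or methylate it were tested. Of these, 4 were higher and 2 lower (14.6% of all genes tested passed), with a median log2 fold change of −0.03 (from −0.06 to 0.09 over the alternatives). *Prmt3* and *Prmt1*, arginine methyltransferases, changed by −0.28 (adjusted p = 0.00643) and −0.26 (adjusted p = 0.0205), each with all 5 mutant hearts below every wild-type heart. *Ass1*, which makes arginine from citrulline together with *Asl*, had 5.24 ± 0.562 and 3.45 ± 0.671 CPM and rose by 0.60 (adjusted p = 0.0135), without overlap. *Asl* rose by 0.34 (adjusted p = 0.0406) and the arginine transporter *Slc7a1* by 0.23 (adjusted p = 0.0317). Calls were lost for *Prmt1* without *Pde2A*-/- replicate D (adjusted p = 0.0598) or 15 (0.0526), for *Asl* without *Pde2A*-/- replicate 14, D or 15 or any *Pde2A*+/+ replicate but 7 (up to 0.0998), and for *Slc7a1* without *Pde2A*-/- replicate 14 or *Pde2A*+/+ replicate 7, 11, H or E (up to 0.0614).

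*Gucy1a1* (ENSMUSG00000033910, chromosome 3, 82092427 to 82145789) and *Gucy1b1* (ENSMUSG00000028005, chromosome 3, 82032006 to 82074689) lie near each other on the minus strand and encode the alpha and beta subunits that form the NO receptor. *Gucy1a1* had 154.1 CPM in *Pde2A*-/- replicate A, 132.8 in B, 166.2 in 14, 176.4 in D and 186.1 in 15, and in *Pde2A*+/+ hearts 134.9 at the lowest, 148.7 at the median and 163.6 at the highest. Replicates 14, D and 15 were above every wild-type heart and replicate B was below every one. *Gucy1b1* was more even, with 111.5 CPM in A, 117.3 in B, 112.0 in 14, 117.3 in D and 119.5 in 15, against 100.7, 110.9 and 127.7 as the lowest, median and highest of *Pde2A*+/+ hearts. All its mutant values lay inside the wild-type range and above the wild-type median. The coefficient of variation of *Gucy1b1* was 3.09% in *Pde2A*-/- and 9.44% in *Pde2A*+/+ hearts, and that of *Gucy1a1* 12.7% and 7.33%. No difference passed for *Gucy1a1*, with a log2 fold change of 0.12 (95% interval −0.05 to 0.30, adjusted p = 0.326), or for *Gucy1b1*, with 0.04 (−0.09 to 0.17, adjusted p = 0.726). As fold changes, these intervals reach from 0.966 to 1.23 for *Gucy1a1* and from 0.937 to 1.13 for *Gucy1b1*.

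Because the subunits act as a dimer, their balance was read as the log2 ratio of *Gucy1a1* to *Gucy1b1* counts in each heart. It was 0.47 in *Pde2A*-/- replicate A, 0.18 in B, 0.57 in 14, 0.59 in D and 0.64 in 15, and lay between 0.21 and 0.67 in *Pde2A*+/+ hearts. Replicate B had the lowest ratio of all hearts and the other mutants fell among the wild types. The means were 0.49 ± 0.18 and 0.41 ± 0.17, and their difference of 0.07 did not pass (exact permutation test over 462 groupings, two-sided, p = 0.50). With each heart left out in turn the difference ranged from 0.03, without *Pde2A*+/+ replicate 6, to 0.15, without *Pde2A*-/- replicate B. Per exon length, *Gucy1b1* held 55.8% ± 3.12 of the transcripts of the pair in *Pde2A*-/- and 57.1% ± 2.83 in *Pde2A*+/+ hearts, whereas by counts not divided by length *Gucy1a1* was the higher of the pair. Of 8 other guanylyl cyclase genes, 0 passed in either direction with edgeR (14.6% of all genes tested did), and their median log2 fold change was 0.14. That median turned to −0.11 with the filter filterByExpr and to −0.02 with the style of the replicate names as a covariate, and without *Pde2A*-/- replicates A, B and D it was −0.03, −0.010 and −0.07. Among them the alternative alpha subunit *Gucy1a2* had 1.48 ± 0.196 and 1.65 ± 0.181 CPM, with a log2 fold change of −0.15 (adjusted p = 0.501).

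Of 11 genes that handle NO and haem beside the cyclase, 2 were higher and 0 lower (14.6% of all genes tested passed). Their median log2 fold change of −0.08 turned to 0.04 without *Pde2A*+/+ replicate H and to 0.01 with *Xist* as a covariate. *Hmox1*, haem oxygenase, had 67.7 ± 33.6 and 23.9 ± 3.78 CPM, a rise to 2.83 times the wild-type level (adjusted p = 0.00341) without overlap. *Txnrd2*, mitochondrial thioredoxin reductase, rose by 0.28 (adjusted p = 0.0493), a call lost without replicate B, 14 or 15 of *Pde2A*-/- or any *Pde2A*+/+ replicate but H (up to 0.119) and with *Xist* as a covariate (0.0668). *Txn1* had a log2 fold change of −0.12 and did not pass (adjusted p = 0.0722). It passed as lower with DESeq2 (0.0153), filterByExpr (0.0402) or *Xist* as a covariate (0.0483), and without *Pde2A*-/- replicate B (0.0419).

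Promoter sequences, 300 bases each from upstream of an annotated start to just past it, were held, from RefSeq (GRCm38.p6), for 6 of the 9 genes (not *Nos2*, *Nos3* and *Prkg2*), 8 promoters in all. Those of the cyclase subunits are printed 5′ to 3′ on the minus strand, since the pair makes up a single enzyme and lies close together: that of *Gucy1b1* from chr3:82074662-82074961 and the upstream of the 2 promoters of *Gucy1a1* from chr3:82145601-82145900. Capitals mark the letters searched for on both strands: the GC box (GGGCGG, on the other strand CCGCCC), the CCAAT box (on the other strand ATTGG) and the short form of the cAMP response element (TGACG, on the other strand CGTCA).
Gucy1b1: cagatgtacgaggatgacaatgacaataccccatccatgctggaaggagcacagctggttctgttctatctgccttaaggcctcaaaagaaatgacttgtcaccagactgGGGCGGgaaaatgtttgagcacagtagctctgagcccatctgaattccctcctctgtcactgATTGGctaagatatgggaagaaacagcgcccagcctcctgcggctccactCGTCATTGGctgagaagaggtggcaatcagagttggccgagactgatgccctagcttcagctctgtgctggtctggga
Gucy1a1: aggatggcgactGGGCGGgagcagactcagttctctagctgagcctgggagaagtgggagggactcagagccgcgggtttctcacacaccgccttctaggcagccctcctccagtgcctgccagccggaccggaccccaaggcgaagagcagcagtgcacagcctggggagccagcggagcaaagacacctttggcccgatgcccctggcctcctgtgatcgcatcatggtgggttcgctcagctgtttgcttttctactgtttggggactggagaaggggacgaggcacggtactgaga

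*Gucy1b1* held 1 GC box, 2 CCAAT boxes and 1 short element, the short element sharing 1 base with the second CCAAT box, and the window of *Gucy1a1* printed here held 1 GC box. Among the 32851 promoters of the same length, 35.7% held the GC box, 37.4% the CCAAT box and 20.8% the short element. Of the 8 promoters of these genes, 5 held a GC box (*Ddah2*, *Gucy1a1*, *Gucy1b1* and both of *Prkg1*), 2 a CCAAT box (*Gucy1b1* and *Prkg1*) and 2 the short element (*Gucy1b1* and *Nos1*). The full element TGACGTCA was in 0 of the 8 and in 1.79% of all promoters. These starts need not be the outermost of a gene. By the gene spans given here, the printed window of *Gucy1a1* lies mostly inside the gene. That of *Nos1* (chr5:117866589-117866888) lies wholly inside its gene. A match of letters describes the sequence and does not show that a factor binds there.

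*Prkg1* (ENSMUSG00000052920, chromosome 19, 30564489 to 31765033, minus strand) encodes the cGMP-dependent kinase of smooth muscle and heart. It had 47.2 CPM in *Pde2A*-/- replicate A, 44.5 in B, 49.7 in 14, 55.2 in D and 53.6 in 15, and in *Pde2A*+/+ hearts 40.0 at the lowest, 43.7 at the median and 50.7 at the highest. Every mutant heart was above the wild-type median, replicates D and 15 above all wild-type hearts. The means, 50.0 ± 4.41 and 45.3 ± 4.37 CPM, differed by a log2 fold change of 0.14 (95% interval −0.02 to 0.31), which did not pass (adjusted p = 0.215, the lowest of the 8 genes that missed the threshold). *Prkg2* (ENSMUSG00000029334, chromosome 5, 98929773 to 99037351, minus strand), the membrane-bound kinase, held 3.99% ± 0.652 of the transcripts of the pair per exon length in *Pde2A*-/- and 3.60% ± 1.44 in *Pde2A*+/+ hearts. It had 0.757 CPM in A, 0.803 in B, 1.17 in 14, 1.33 in D and 1.13 in 15, against 0.323, 0.803 and 1.22 as the lowest, median and highest of *Pde2A*+/+ hearts. Replicate D alone was above the wild-type range, and *Pde2A*+/+ replicate H, with 13 counts, was the lowest of all hearts. At 13 to 48 counts per heart, a log2 fold change of 0.33 had an interval from −0.28 to 0.95 (adjusted p = 0.473). The value for *Prkg2* was 0.17 without *Pde2A*+/+ replicate H and 0.53 with the style of the replicate names as a covariate.

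*Prkg1* was set against smooth muscle and pericyte RNA in the same way as *Nos3* against endothelial RNA. Its log2 CPM minus the mean of 12 markers was 0.45 in *Pde2A*-/- replicate A, 0.25 in B, 0.52 in 14, 0.38 in D and 0.18 in 15, and between −0.15 and 0.47 in *Pde2A*+/+ hearts. Replicate 14 was above every wild-type heart, and the other mutants fell among them. The means, 0.36 ± 0.14 and 0.20 ± 0.26, differed by 0.16, which did not pass (exact permutation test over 462 groupings, two-sided, p = 0.271). With the median of the markers the difference was 0.06 (exact permutation test, p = 0.578), and without *Pde2A*+/+ replicates 7 and E it was 0.10 and 0.09. Of the markers 0 were higher and 2 lower in edgeR, with a median log2 fold change of −0.10 (from −0.15 to 0.04 over the alternatives) and overlapping sums of 1889 ± 117.4 and 2116 ± 236.0 CPM, *Acta2* being the most abundant. Of 12 cardiomyocyte markers 1 was higher and 3 lower, with a median of −0.10 (from −0.16 to −0.03 over the alternatives) and overlapping sums of 40002 ± 2890 and 41608 ± 4380 CPM. *Myh7* was the most abundant, and *Nppa*, the gene that was higher, changed most, by 0.87 (adjusted p = 0.00999). The remaining lists were those of fibroblasts and epicardium (3 higher and 1 lower of 10, median 0.20, *Col3a1* the most abundant), skeletal muscle (0 of 8 in edgeR, median 0.89, from 0.36 to 1.29 over the alternatives, *Myh3*) and platelets (2 higher and 0 lower of 6, median 0.59, *Itga2b*). In all, 38 of 99 cell type markers passed (38.4%, beside 14.6% of all genes tested), 30 higher and 8 lower. The lists were chosen with earlier results of these data known, so this share is a description and not a test. The part of these cell types in the levels of *Prkg1* and *Prkg2* was not tested.

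Of 15 genes for substrates and anchors of the kinases, 2 were higher and 0 lower (14.6% of all genes tested passed). Their median log2 fold change of −0.04 turned to 0.08 with the style of the replicate names as a covariate. It was 0.06 without *Pde2A*+/+ replicate 7 and −0.09 without *Pde2A*-/- replicate 14. *Rgs2*, a regulator of G protein signalling, had 22.8 ± 2.45 and 16.9 ± 0.976 CPM, a rise of 0.43 (adjusted p = 0.00245), and the calcium channel gene *Itpr1* rose by 0.35 (adjusted p = 0.00833), each with all 5 mutant hearts above every wild-type heart. *Mrvi1*, the anchor through which the product of *Prkg1* acts on that channel, had a log2 fold change of 0.25 and did not pass (adjusted p = 0.0794), though it did without *Pde2A*-/- replicate B (0.0383) and with DESeq2 (0.0405). In the other direction, *Hspb6* had a log2 fold change of −0.28 and did not pass (adjusted p = 0.0892). It passed as lower with DESeq2 (0.0454), with the style of the replicate names as a covariate (0.0286) and without *Pde2A*+/+ replicate 8 (0.0187).

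Of 9 phosphodiesterase genes whose enzymes hydrolyse cGMP, 3 were higher and 0 lower, with a median log2 fold change of 0.21: *Pde1a* by 0.31 (adjusted p = 0.00909), *Pde10a* by 0.70 (adjusted p = 0.00932) and *Pde3a* by 0.31 (adjusted p = 0.0293). *Pde3a* lost its call without replicate D or 15 of *Pde2A*-/- or replicate 7, 11, 6 or 8 of *Pde2A*+/+ hearts, with adjusted p up to 0.0839. Over all 7 pathway lists 19 of 75 genes passed, 25.3%, beside 14.6% of all genes tested. This share too is a description and not a test, since the lists were chosen with earlier results of these data known. The genes tested also include those with as few as 10 counts over the hearts. Without *Pde2A*-/- replicate 14, D or 15 or *Pde2A*+/+ replicate 6 the count of 19 became 12, 12, 11 and 12 (of all genes 1858, 1702, 1918 and 2156 passed then), and with DESeq2 it was 36 (5145 of all genes).

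For 6 of the 7 members that averaged 1 CPM or more (not *Nos2*, for which it is not given), the gene whose level varied most like it was sought among 13059 protein-coding genes, by Pearson's r over the 11 hearts after centring on the mean of each genotype. *Nos3* varied most like *Fam20b* (r = 0.970). For *Ddah1* the nearest gene was *Mycn* (r = 0.944) and for *Ddah2* it was *Dvl1* (r = 0.916). *Gucy1a1* was nearest to *Rarb* (r = 0.951) and *Gucy1b1* to *Exosc10* (r = 0.965), so that the subunits were not each other's nearest genes. The nearest gene of *Prkg1* was *Cage1* (r = 0.897). These values describe how the hearts of a genotype differ among themselves, and each is the highest of many correlations.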

How the data were processed

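The authors mapped single-end reads from stranded libraries of poly(A) RNA to GRCm38 with STAR and deposited unnormalized counts per gene, 1 file per heart. The sense-strand counts were used; 19.6% to 22.4% of the reads of a heart were counted on no gene. The genotypes were compared, for genes that reached 10 counts summed over the hearts, with edgeR 4.0.16 in R 4.3.3 (TMM, quasi-likelihood test, Benjamini-Hochberg over all genes tested). Mean log2 CPM used a prior count of 2, and count ratios an added 0.5. Values per heart were compared by exact permutation over the 462 groupings of 5 and 6 hearts, two-sided, whose smallest p is 0.0022. Gene positions came from GENCODE M21 and promoters from RefSeq GRCm38.p6.

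The members and lists (7 of the pathway, 10 of cell type markers) were chosen with earlier results of these data known. Of the 190 listed genes, 2 were found under older symbols. Named by rule were the members, of each pathway list up to 8 genes past the adjusted p and up to 3 others with the largest changes among those averaging 1 CPM or more, of each marker list the most abundant gene and the one that changed most, and for each member with a mean of at least 1 CPM its nearest gene. Single results of 3 genes named by this rule are not given, and the list counts include them where they belong to a list. The calls were tested on simulated data.

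Alternatives, 1 at a time, were DESeq2 1.42.0, its size factors, filterByExpr, no filter, reads of both strands, counts without the globin genes, *Xist* or the style of the replicate names as a covariate, an adjusted p under 0.01, other added counts, the median of the markers, and each heart left out. For the lists and for named genes outside the members these were added after seeing the data.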

Additional observations from a re-analysis of the deposited data

Results flagged for a closer look

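In 174 groups of hearts, the gap between the highest or lowest heart and its nearest neighbour was compared with the range of the group, and 5 groups had a heart far from the others; chance gives about 1 in 20. Nos3 against endothelial markers was 0.36 in *Pde2A*+/+ replicate 8 and 0.14 to 0.21 in the other wild-type hearts. *Hmox1* stood at 31.1 CPM in the same heart and at 21.2 to 24.8 CPM in the others. *Pde2A*+/+ replicate 11 was low for *Rgs2*, with 15.1 CPM against 16.7 to 17.7. *Pde2A*-/- replicate B had 64.6 CPM of *Nfatc1*, the other mutant hearts 51.0 to 53.6. *Myh7* reached 16016 CPM in *Pde2A*-/- replicate 15 and 12035 to 12836 CPM in the others. No heart stood apart in this way in the CPM of any of the 9 genes.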

How the results depend on the processing

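The log2 fold changes of the 9 genes kept their direction under every alternative, except that of *Nos3*, which reversed without *Pde2A*-/- replicate D or 15 (range with a heart left out −0.094 to 0.020). *Nos2* ranged from −0.98 to −0.94 under the other fits, with adjusted p from 0.000767 (DESeq2) to 0.0274 (*Xist* as a covariate). With a heart left out, *Nos1* ranged from −0.46 to −0.15, *Ddah1* from −0.13 to −0.052, *Gucy1a1* from 0.076 to 0.19, *Gucy1b1* from 0.0098 to 0.083 and *Prkg2* from 0.17 to 0.48. Members past the adjusted p numbered 1, but 0 at an adjusted p under 0.01 and 0 to 1 with a heart left out. Of all genes 3532 passed, 1031 at the stricter threshold, 5145 with DESeq2 and 1702 to 5052 with a heart left out. Of the pathway lists 19 genes passed, 36 with DESeq2 and 11 to 26 with a heart left out. Of the marker lists 38 passed, 47 with DESeq2 and 32 to 41 with a heart left out. *Nos3* against endothelial markers differed by −0.36 with the median of the markers (exact permutation p = 0.0152) and by −0.15 to −0.03 with a heart left out. The fold change of *Cdh5*, near 0, reversed to −0.00051 with DESeq2 and with its size factors, −0.0047 with filterByExpr, −0.042 with naming style and −0.0082 with *Xist*, and ranged from −0.052 to 0.037 with a heart left out. The cause was not tested. Depth limits *Nos1* and *Prkg2*, with at most 20 and 48 counts per heart.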
